A study of Homo sapiens with 9 samples.

Results

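The genes described here are the 243 gene symbols from ZNF500 to ZNF899, out of 23284 symbols listed in each library. Membership was set by name: every symbol made of ZNF and a number in that range was taken, and no symbol in the set was listed more than once. The range itself was chosen with earlier results of these data known. HT-29, an established line from a human colon adenocarcinoma, was grown as triplicate cultures per group and treated for 5 days with 5-Aza-deoxycytidine (5-Aza), a cytidine analog that is built into DNA and traps DNA methyltransferases. The groups were vehicle (DMSO, 0 μM 5-Aza), 5 μM 5-Aza and 10 μM 5-Aza, with 3 libraries each, all from the same line, so that the 9 libraries share its genotype. The comparisons ask which genes differed in level between 0, 5 and 10 μM.

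Most ZNF genes encode proteins with tandem C2H2 zinc fingers, each of which contacts a few bases of DNA. Many also carry a KRAB domain, which recruits TRIM28 and through it the histone methyltransferase SETDB1 and HP1 proteins, and so silences retroelements and nearby genes. A large share of the KRAB genes lie in clusters on chromosome 19, and several have been described as methylated at their promoters in tumours.

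The deposited values are FPKM (fragments per kilobase of transcript, scaled to the size of the library), a level per length, on a scale well above that of ordinary FPKM, so that they were read relative to each other. From the step size of low values, depth was estimated at 17026541 to 31933312 fragments in the control libraries, 29954757 to 35072465 at 5 μM and 12862906 to 27833784 at 10 μM. The 5 μM libraries were thus the deepest as a group. All 10 colon epithelial markers looked up were above 0 in all 9 libraries, and their summed FPKM ran from 90259900 to 108554000 in the control, from 37676800 to 42332100 at 5 μM and from 29613100 to 52068000 at 10 μM. At 5 μM the keratins KRT8, KRT18 and KRT19 fell (log2 differences -1.65, -1.64 and -1.79) and CEACAM5 rose (1.59). LGALS4 (-0.87), CDX2 (-0.73), VIL1 (-0.47), KRT20 (-0.46), EPCAM (-0.23) and CDH1 (-0.06) had negative differences and were not called. At 10 μM against 0 μM, KRT19 (-1.54), CDX2 (-1.38) and KRT20 (-1.31) were called lower. Of the other cell types, CD3E (T cells) and CDH5 (endothelium) were listed at 0 in all 3 controls, and none of the 12 leukocyte, endothelial and fibroblast markers was at 0 in all 9 libraries. The summed fibroblast markers ran from 5831 to 9463 in the control, from 33661 to 46932 at 5 μM and from 18633 to 25627 at 10 μM, the endothelial ones from 1901 to 5031, 9786 to 12404 and 3267 to 3588, and the leukocyte ones from 36279 to 48157, 36534 to 44704 and 40357 to 50381. At 5 μM, CD3E was called higher (1 of 4 leukocyte markers), as were all 3 endothelial markers. So were 3 of 5 fibroblast markers (COL1A1, COL1A2 and PDGFRB), where 14.1% of all genes tested were. None of these markers was called lower (2.17% of all). CD14 made up most of the leukocyte sum (means of 40514 in the control and 37791 at 5 μM). The part of depth and of these markers in the results was not tested. In bulk RNA, fewer cells that transcribe a gene and less RNA of it per cell cannot be told apart.

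DNA methylation in human cells lies mostly at CpG dinucleotides, so the promoters of members listed at 0 in every control and called higher at 5 μM are shown. RefSeq promoter windows (GRCh38.p14, 250 bases before to 50 after the start) were placed in GRCh37, the build of the files, by an exact match. The window of ZNF606, a KRAB repressor, lies at chr19:58514139-58514438 on the minus strand, that of ZNF582 at chr19:56904854-56905153 (minus), that of ZNF667 at chr19:56988665-56988964 (minus), that of ZNF569 at chr19:37958297-37958596 (minus) and that of ZNF648 at chr1:182030798-182031097 (minus). Each is printed 5′ to 3′ with every CpG in capitals, the first 3 for their many CpGs, ZNF569 for its overlap with a neighbour and ZNF648 because it holds few.
ZNF606: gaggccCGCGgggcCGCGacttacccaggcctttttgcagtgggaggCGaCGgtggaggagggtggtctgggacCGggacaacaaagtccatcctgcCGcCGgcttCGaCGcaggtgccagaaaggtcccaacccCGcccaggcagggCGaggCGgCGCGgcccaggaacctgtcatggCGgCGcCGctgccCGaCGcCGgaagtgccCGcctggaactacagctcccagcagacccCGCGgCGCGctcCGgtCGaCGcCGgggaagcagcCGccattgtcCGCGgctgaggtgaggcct
ZNF582: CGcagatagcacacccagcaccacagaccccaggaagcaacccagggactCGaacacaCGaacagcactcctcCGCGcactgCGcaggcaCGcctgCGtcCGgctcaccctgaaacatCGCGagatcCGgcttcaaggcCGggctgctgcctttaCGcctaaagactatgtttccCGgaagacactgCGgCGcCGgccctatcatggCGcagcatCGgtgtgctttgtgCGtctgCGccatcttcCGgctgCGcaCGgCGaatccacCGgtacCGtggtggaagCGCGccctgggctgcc
ZNF667: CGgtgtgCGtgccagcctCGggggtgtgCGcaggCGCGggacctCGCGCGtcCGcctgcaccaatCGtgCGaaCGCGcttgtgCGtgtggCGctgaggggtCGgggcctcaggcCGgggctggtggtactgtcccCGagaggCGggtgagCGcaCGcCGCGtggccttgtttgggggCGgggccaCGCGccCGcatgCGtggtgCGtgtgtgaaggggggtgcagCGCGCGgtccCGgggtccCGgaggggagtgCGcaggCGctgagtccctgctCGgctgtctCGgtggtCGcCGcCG
ZNF569: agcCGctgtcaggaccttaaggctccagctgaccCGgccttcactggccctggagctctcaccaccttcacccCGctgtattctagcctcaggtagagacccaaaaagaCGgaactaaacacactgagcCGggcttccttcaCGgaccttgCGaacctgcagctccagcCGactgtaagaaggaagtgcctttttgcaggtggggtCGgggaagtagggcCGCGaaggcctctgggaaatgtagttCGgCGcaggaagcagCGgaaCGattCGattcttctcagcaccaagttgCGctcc
ZNF648: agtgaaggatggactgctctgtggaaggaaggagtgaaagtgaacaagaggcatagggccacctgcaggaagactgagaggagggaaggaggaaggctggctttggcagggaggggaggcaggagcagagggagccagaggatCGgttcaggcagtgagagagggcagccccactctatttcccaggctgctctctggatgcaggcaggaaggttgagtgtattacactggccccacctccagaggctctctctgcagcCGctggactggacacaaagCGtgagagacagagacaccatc
The letters CG, which read the same on both strands, occurred 34 times in the ZNF606 window, 30 times in ZNF582, 42 times in ZNF667, 17 times in ZNF569 and 3 times in ZNF648. A window was found for 198 of the 243 genes, with a median of 22.5 CpGs, and 176 of them (88.9%) held at least 12. Over all symbols of the files with a window (14041), 70.1% held at least 12, and over all symbols listed at 0 in the control (2421 with a window) 35.8% did, with a median of 6. Of the ZNF members at 0 in the control and called higher at 5 μM, 8 of 9 with a window held at least 12, with a median of 20. The counts describe the letters only.

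In the control, 18 of the 243 genes (7.41%) were listed at 0 in all 3 libraries, against 5529 of 23284 symbols (23.7%). The share was 10.8% (31 of 287) among the other ZNF symbols and 12.7% (10 of 79) among the ZSCAN, ZKSCAN, ZFP and ZBTB symbols, which name related zinc finger genes. An exact 0 can also be a failed estimate. The 18 genes were ZNF534, ZNF536, ZNF542, ZNF568, ZNF569, ZNF570, ZNF582, ZNF606, ZNF610, ZNF625, ZNF626, ZNF645, ZNF648, ZNF665, ZNF667, ZNF677, ZNF729 and ZNF879. Without control replicate 1 the number listed at 0 was 29. ZNF536, ZNF610, ZNF645 and ZNF729 were listed at 0 in all 9 libraries, and 195 genes (80.2%) were above 0 in all 9.

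The number of ZNF genes at 0 was 33, 39 and 31 in the control libraries, 16, 17 and 12 at 5 μM, and 29, 30 and 28 at 10 μM. The 5 μM libraries did not overlap those of either other group. The same order held for all symbols, of which 27.2% to 29.7% were at 0 in the control libraries, 18.6% to 19.4% at 5 μM and 24.4% to 26.5% at 10 μM. The median level of the 243 genes ran from 21395 to 26435 in the control libraries, from 24503 to 25660 at 5 μM and from 20017 to 24094 at 10 μM. The control range overlapped each of the others, and the 5 μM libraries were all above the 10 μM libraries.

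At 5 μM against 0 μM, 24 of 239 ZNF genes tested rose (10%, against 14.1% of all 20051 genes tested) and 5 fell (2.09%, against 2.17% of all). Calls required limma p-values, adjusted by Benjamini-Hochberg over all genes tested, not above 0.05, and more than 1 log2 unit of difference. The median log2 difference was -0.03 over the ZNF genes, also with genes at 0 in a group set at their bound, and 0.14 over all genes tested. Of the 239, 118 were above 0. Among genes above 0 in all 6 libraries the medians were -0.08 (196 ZNF genes) and -0.04 (15418 genes). For 137 of the 239 (57.3%) the 95% interval of the difference lay within -1 and 1. At the same adjusted p but any fold, 36 ZNF genes were higher (15.1%, against 21.3% of all) and 43 lower (18%, against 17.7% of all).

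**Figure D1:**
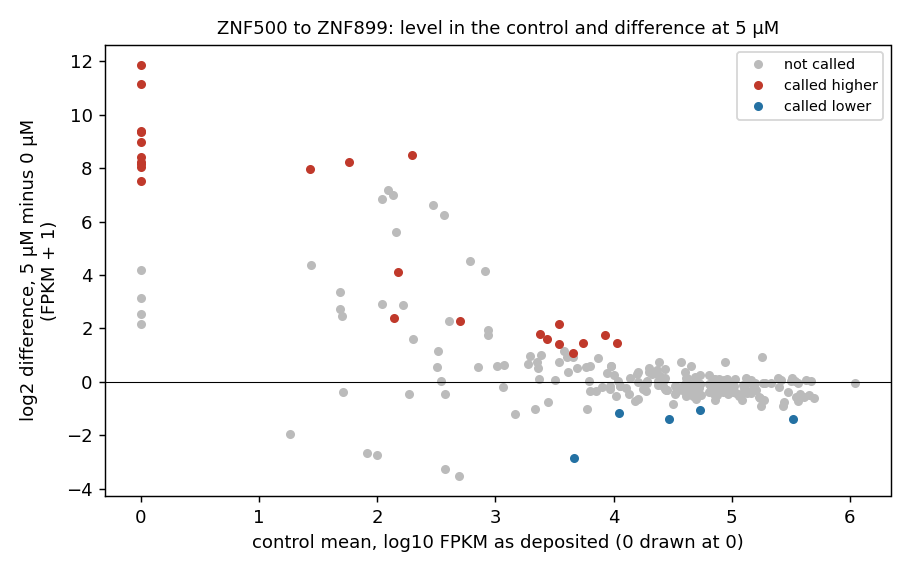
Each point is 1 of the 239 ZNF genes tested, where the x axis is the control mean (log10 of FPKM as deposited) and the y axis the log2 difference of FPKM + 1 between 5 μM and 0 μM. The 24 genes called higher lie at low control levels, 10 of them at 0, and the 5 called lower are spread over the levels above 0.

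Genes were then set beside other genes of similar level: those at 0 in all 3 controls, then 5 classes of equal size by the control mean of all symbols above 0 (class 1 the lowest), with bounds at 2251, 28892, 107106 and 281097 FPKM. Among genes at 0 in the control, 10 of 14 ZNF genes tested rose (71.4%) and 862 of 2330 other genes did (37%). A gene at 0 in the control was tested where a 5 μM library reached 10 FPKM. Counted over all genes at 0 in the control, tested or not, the shares were 10 of 18 (55.6%) and 862 of 5511 (15.6%). In class 1, 6 of 44 ZNF genes rose (13.6%, against 22.2% of other genes), and in class 2, 8 of 68 (11.8%, against 25.9%). In classes 3, 4 and 5 none of 67, 30 and 16 ZNF genes rose by this limma call, where 4.76%, 1.73% and 0.934% of other genes did. The ZNF symbols outside the set had a like pattern, with 13 of 23 tested at 0 in the control called higher. In classes 1 to 5 their counts were 2 of 32, 8 of 66, 4 of 100, 0 of 51 and 0 of 7. Over all tested genes above 0 in the control, 14 of 225 ZNF genes rose (6.22%) and 1932 of 17482 others did (11.1%). With the shares of other genes of the same level, 36.5 of the 239 would be called higher and 4.68 lower, beside the 24 and 5 observed. These shares are descriptions, and the difference between the ZNF genes and the others was not tested.

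**Figure D2:**
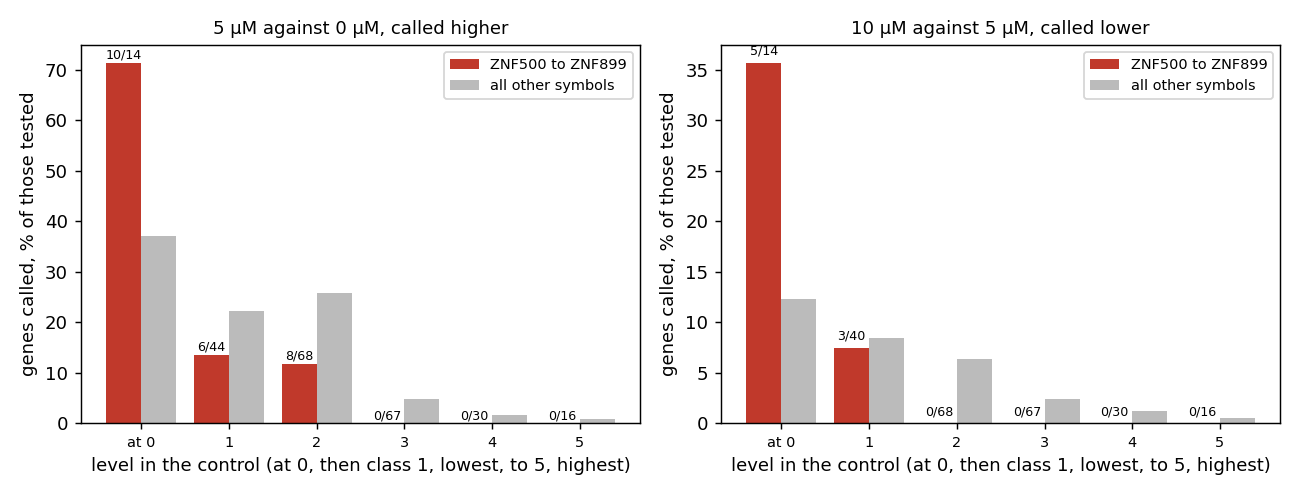
Percent of tested genes called by control level (x axis: at 0, then classes 1 to 5 of the control mean), for ZNF500 to ZNF899 and all other symbols, where numbers over the bars are ZNF genes called of those tested. At 5 μM against 0 μM the ZNF bar is above the other at level 0 (71.4% and 37%) and below it in classes 1 to 5, and at 10 μM against 5 μM it is above at level 0 (35.7% and 12.3%) and below in classes 1 to 5.

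The 10 genes at 0 in every control and called higher at 5 μM had adjusted p between 0.000333 and 0.00265 (limma, Benjamini-Hochberg). They entered the test through their 5 μM values alone, and their 3 controls had no spread. The p-values are thus given as a description and are not support for a rise. ZNF542 read 4360, 4796 and 2428 FPKM at 5 μM and 0, 237 and 0 at 10 μM, the highest of the set. ZNF606 read 2657, 2880 and 1477 at 5 μM and 0, 0 and 223 at 10 μM, about 32.5, 33.5 and 19.3 fragments at 5 μM. Every 5 μM library was thus above every library of the other groups for both genes. Against a floor of 3 fragments over the 3 controls, ZNF606 was 18.2-fold higher at 5 μM. Such bounds take the 5 μM fragments as observed and leave out their own counting error. The other genes rested on fewer fragments.

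ZNF569, a KRAB repressor, read 577, 1214 and 385 at 5 μM and 312, 592 and 0 at 10 μM, about 7, 14 and 5 fragments at 5 μM. Against the same floor it was 5.54-fold higher than the control. ZNF570 read 467, 328 and 146 at 5 μM and 0 in all 3 libraries at 10 μM, and was 3.2-fold higher against that floor. These genes overlap head to head on chromosome 19 (GRCh37, ZNF569 at chr19:37902057-37960177, minus strand, and ZNF570 at chr19:37958487-37979554, plus strand). Whether strand was used in counting was not given in the sources used here, so that reads in the shared stretch cannot be told apart.

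ZNF582, described as methylated in cervical tumours, read 304, 160 and 569 at 5 μM, about 2.7, 1.4 and 5.5 fragments. ZNF667 read 149, 366 and 325, and ZNF534 read 346, 364 and 323. ZNF625, which overlaps the readthrough entry ZNF625-ZNF20 on the same strand, read 858, 903 and 401, on about 4, 4 and 2 fragments. These 4 genes were listed at 0 in all 6 control and 10 μM libraries. Against the floor of 3 fragments over the controls, ZNF582 was 2.04-fold, ZNF667 2.39-fold, ZNF534 3.49-fold and ZNF625 2.15-fold higher. With few fragments at 5 μM, whose counting error is left out, these folds are not lower limits. ZNF879 read 928, 279 and 496 at 5 μM and 502, 0 and 0 at 10 μM. ZNF648, whose window held 3 CpGs, read 184, 194 and 172 at 5 μM and 349, 0 and 261 at 10 μM, 2 fragments in each library above 0. The minimum of 10 FPKM for testing thus lay well under the value of 1 fragment there. With a pseudocount of 1000 in place of 1, ZNF542 and ZNF606 remained called and the other 8 did not.

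**Figure D3:**
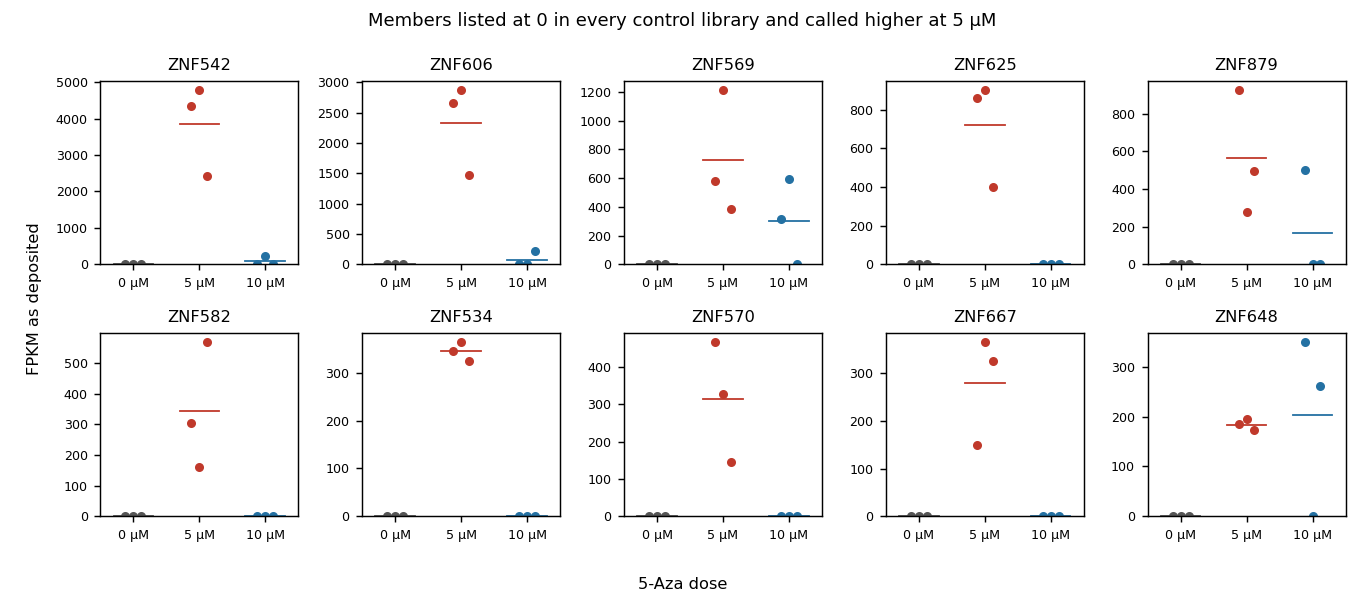
FPKM as deposited in each library (points) with the group mean (line) against 5-Aza dose, for the 10 ZNF genes at 0 in all 3 controls and called higher at 5 μM. All 3 libraries at 5 μM are above 0 for each gene, and at 10 μM 5 of the 10 genes are back at 0 in every library.

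Of the remaining 8 genes at 0 in the control, 4 had a value above 0 at some dose and none was called by limma. ZNF568 read 709 in 5 μM replicate 1 and 0 elsewhere. ZNF626 read 0, 57 and 101 at 5 μM. ZNF665 read 192 in 5 μM replicate 3 and 62 in 10 μM replicate 2. ZNF677, described as methylated in lung tumours, read 90 in 5 μM replicate 3 and 273 in 10 μM replicate 3. ZNF671, the other gene on the list of those described as methylated in tumours, was expressed in the control (21283, 26146 and 23954) and read 25973, 18622 and 22010 at 5 μM, so that the groups overlapped (log2 difference -0.11, not called).

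Among the 14 other genes that rose, 11 were above 0 in all 6 libraries. ZNF643 (current symbol ZFP69B) read 7549, 8889 and 8839 in the control, 26153, 27706 and 31944 at 5 μM and 14520, 18794 and 13063 at 10 μM. It rose by 1.76 ± 0.16 on the log2 scale (SE; limma adjusted p = 0.000566), and its 3 groups did not overlap. ZNF772 rose from 4649, 5860 and 6149 to 14254, 14959 and 15951 (log2 difference 1.45, adjusted p = 0.00208, limma) and ZNF615 from 2948, 2363 and 2853 to 7498, 7111 and 10321 (1.60, adjusted p = 0.00519, limma). ZNF750, a regulator of epidermal differentiation that overlaps TBCD on the opposite strand, rose from 2816, 2713 and 1559 to 8088, 8512 and 7461 (1.81, adjusted p = 0.00621, limma). TBCD differed by 0.13 on the log2 scale, but at a far higher level (means of 167107 in the control and 182545 at 5 μM). Reads of TBCD counted for ZNF750 cannot be told apart. ZNF530 rose from 1663, 3304 and 5321 to 13364, 14185 and 14323 (2.18, adjusted p = 0.00951, limma). In each of these genes every 5 μM library was above every control library.

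ZNF519 rose from 4953, 3641 and 4963 to 9310, 9668 and 9305 (1.08). ZNF815, annotated as a pseudogene, rose by 1.42 and ZNF577 by 1.47 on the log2 scale. ZNF662 (4.13), ZNF605 (2.29) and ZNF578 (2.38) also rose, from low control values, ZNF578 on 1, 1 and 4 fragments. ZNF605 overlaps CHFR on the same strand (means of 37753 in the control and 45953 at 5 μM). ZNF577 overlaps ZNF649, also on the same strand (5794 and 8704). Reads shared with these neighbours cannot be told apart. ZNF577, ZNF662, ZNF605 and ZNF578 were not called without 5 μM replicate 1, and ZNF577 and ZNF662 also not without 5 μM replicate 2 or 3. ZNF605 was lost without 5 μM replicate 2, and ZNF578 without 5 μM replicate 3 or control replicate 1 or 2. The other 3 of the 14 were at 0 in part of the controls. ZNF560 read 589, 0 and 0 in the control and 2204, 5153 and 2403 at 5 μM, ZNF571 read 0, 0 and 173 and then 2151, 3072 and 718, and ZNF541 read 0, 0 and 81 and then 1363, 981 and 938. ZNF571 overlaps ZNF540 on the opposite strand (means of 320 in the control and 473 at 5 μM).

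The 5 ZNF genes below fell at 5 μM. ZNF703, a transcriptional co-repressor of the NET family, read 344875, 341195 and 300263 in the control, 116377, 129614 and 127066 at 5 μM and 127878, 181784 and 109678 at 10 μM. It fell by 1.40 on the log2 scale (SE 0.08, limma adjusted p = 0.000202), and its control libraries stood above all others. ZNF792 fell from 26552, 30637 and 31573 to 9572, 11707 and 13220 (log2 difference -1.37, adjusted p = 0.00156, limma). ZNF521, a cofactor in stem and progenitor cells, fell from 4806, 5518 and 3451 to 999, 561 and 436 (-2.85, adjusted p = 0.00452, limma). ZNF771 fell by 1.05 and ZNF630 by 1.15, and both overlap other genes. DCTPP1, which overlaps ZNF771 on the opposite strand, differed by -0.72 in the same comparison. Without control replicate 2, ZNF771 and ZNF630 were not called and 3 ZNF genes fell, while 415 of all genes did (436 with every library). ZNF771 was also lost without 5 μM replicate 2, and ZNF630 without control replicate 3 or 5 μM replicate 1 or 3.

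**Figure D4:**
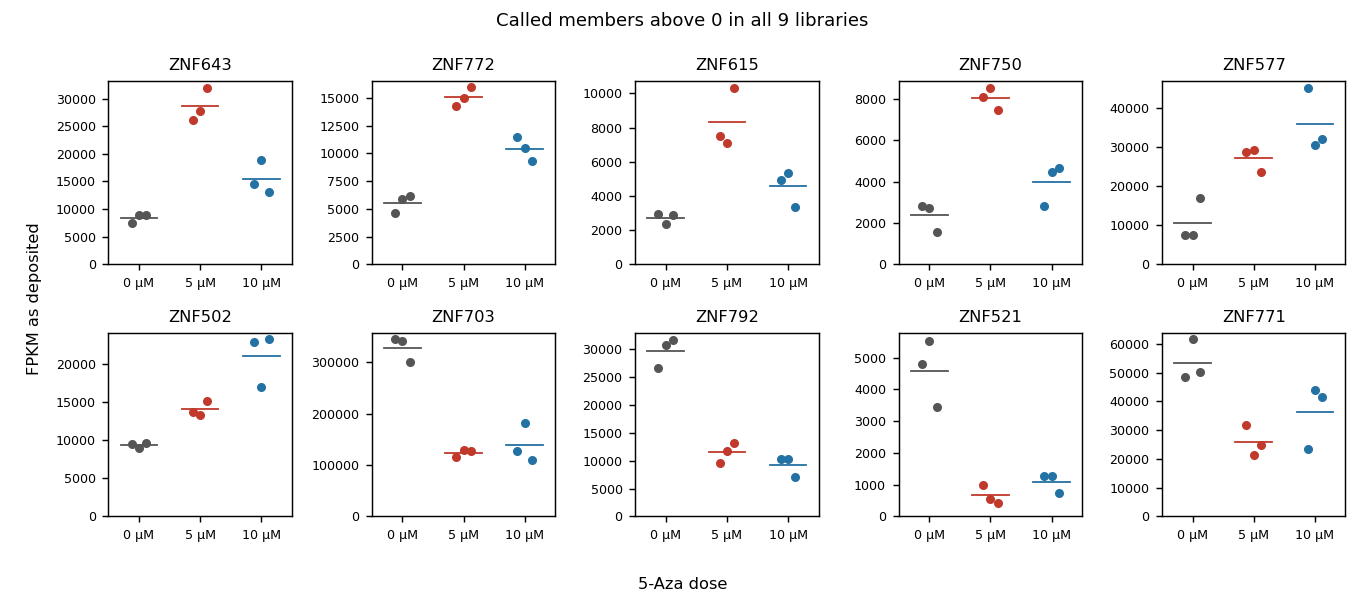
FPKM as deposited in each library (points) with the group mean (line) against 5-Aza dose, for 10 called ZNF genes above 0 in all 9 libraries. ZNF643, ZNF772, ZNF615 and ZNF750 are highest at 5 μM, while ZNF703, ZNF792 and ZNF521 are highest in the control.

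At 10 μM against 5 μM, none of 235 ZNF genes rose (0.129% of all 20085 genes tested) and 8 fell (3.4%, against 4.82% of all) by limma. At an unadjusted p under 0.05 with the same fold, 0 were higher and 17 lower. That count was not made over all genes, so no share can be set beside it. The median log2 difference was -0.16 over the ZNF genes and -0.31 over all genes. Scaling by the median of ratios moved the median of all genes by 0.20, to -0.11, and that of the ZNF genes to 0.04, so that the sign of the ZNF median turned with the scaling and the number above 0 went from 72 to 126 of 235. Under both scalings 0 ZNF genes rose and 8 fell by limma. Of all genes tested, 26 rose and 969 fell, and 55 and 828 did with the median of ratios. Of the 8 ZNF genes that fell, 7 were listed at 0 in all 3 libraries at 10 μM. ZNF625, ZNF534, ZNF582, ZNF570 and ZNF667 were among those at 0 in the control as well. ZNF880 read 1083, 1791 and 578 at 5 μM and ZNF883 1317, 308 and 1231. ZNF549, the gene above 0 in all 6 libraries, fell from 6307, 4523 and 6671 to 310, 874 and 926 (log2 difference -3.19, adjusted p = 0.0202, limma). It overlaps ZNF550 on the opposite strand, which had higher means (45578 at 5 μM and 35869 at 10 μM). Without 5 μM replicate 1, 2 or 3 the number of ZNF genes that fell was 2, 4 or 1, and ZNF549 was not called without any one of them. Over all genes the number that fell was then 414, 488 or 176.

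By level, 5 of 14 ZNF genes at 0 in the control fell from 5 to 10 μM (35.7%, against 12.3%), 3 of 40 in class 1 (7.5%, against 8.48%) and none of 68, 67, 30 and 16 in classes 2 to 5, where 6.41%, 2.44%, 1.28% and 0.538% of other genes fell. Of the ZNF symbols outside the set, 3 of 24 at 0 in the control fell, 2 of 32 in class 1, 1 of 66 in class 2 and none above. The shares of other genes of the same level would give 11.6 lower. This comparison shares the 5 μM libraries with the one before. Of the 24 genes that rose at 5 μM, 16 had a mean at 10 μM between those at 0 and 5 μM, 6 had one at or below the control and 2 had one above that at 5 μM. The 24 were picked for high 5 μM values, and the 5 μM libraries were the deepest. That split was not made over all genes, so it cannot be read as a trait of the ZNF genes.

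At 10 μM against 0 μM, 2 of 232 ZNF genes rose (0.862%, against 4.07% of all 18928 genes tested) and 4 fell (1.72%, against 3.4% of all). The shares of other genes of the same level would give 11.0 higher and 6.77 lower. The median log2 difference was -0.19 over the ZNF genes and -0.15 over all genes. With median-of-ratios scaling it was 0.05 and 0.08, a shift of 0.23 for all genes. The number of ZNF genes above 0 went from 89 to 127 of 232, and 6 rose and 3 fell. Over all genes, 771 rose and 644 fell, and 1125 and 284 did with that scaling. ZNF577 rose to 45027, 30486 and 32029 from 7576, 7389 and 16931 (log2 difference 1.85, adjusted p = 0.0224, limma). ZNF502 rose to 22915, 17038 and 23325 from 9535, 9047 and 9655 (1.15, adjusted p = 0.0244, limma), with 13714, 13335 and 15121 at 5 μM between them. ZNF792 (-1.70), ZNF703 (-1.26), ZNF521 (-2.08) and ZNF511 (-1.03) fell, the first 3 also at 5 μM. ZNF792 stayed called without any 1 library and ZNF703 without any but control replicate 2. Without control replicate 2, 10 μM replicate 1 or 10 μM replicate 3, no ZNF gene rose, while 416, 443 or 337 of all genes did. Without control replicate 1, neither ZNF577 nor ZNF502 was called, and without control replicate 3 ZNF502 was not. Without 10 μM replicate 2, 4 ZNF genes rose and 8 fell, beside 819 and 1500 of all genes. The number of ZNF genes that fell was 1 without control replicate 2 and 2 without control replicate 1, 10 μM replicate 1 or 10 μM replicate 3. Over all genes it was 165, 225, 253 and 228 in that order. ZNF511, which overlaps TUBGCP2, and ZNF521 were lost without any control library, without 10 μM replicate 1 and without 10 μM replicate 3.

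The most abundant members in the control were ZNF664, ZNF787, ZNF593, ZNF598, ZNF580, ZNF768, ZNF770, ZNF638, ZNF511 and ZNF524. None of the 10 was called at 5 μM by limma. In level class 5, which holds them, calls were also few among other genes (0.934% higher and 5.21% lower). ZNF664 read 1130030, 1173380 and 994358 in the control and 933060, 1147390 and 1093980 at 5 μM, and the groups overlapped. ZNF787 read 552642, 531790 and 418933 in the control and 313562, 318404 and 338457 at 5 μM, without overlap (log2 difference -0.62, under the fold threshold). ZNF524 (-0.72), ZNF768 (-0.56) and ZNF511 (-0.59) had differences of like size.

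The 3 members that act in translation or ribosome assembly, ZNF593, ZNF598 (a ubiquitin ligase for collided ribosomes) and ZNF622, were called in no comparison, with log2 differences of 0.02, -0.48 and 0.09 at 5 μM. Nor were the 8 that partner with chromatin regulators (ZNF638, ZNF644, ZNF687, ZNF592, ZNF532, ZNF711, ZNF827 and ZNF516), of which ZNF827 differed most at 5 μM (-0.69). Of 4 developmental regulators, ZNF750 rose, ZNF703 and ZNF521 fell, and ZNF503 was not called (-0.25).

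On chromosome 19 lay 123 of the 238 ZNF genes matched to the GRCh37 annotation. There, 15 of 120 tested rose at 5 μM (12.5%, against 18.6% of all tested symbols on that chromosome), and elsewhere 8 of 114 did (7.02%, against 13.7%). In the control 14 of the 123 were at 0 (11.4%), and 3 of the 115 elsewhere (2.61%). Among all symbols these shares were 20.7% and 22.5%. Adjacent members that both rose were ZNF569 with ZNF570, and ZNF534 with ZNF578. The difference between the chromosomes was not tested.

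The proteins that KRAB zinc fingers work through were read from a list of 32 co-repressor and heterochromatin genes, all above 0 in all 9 libraries. At 5 μM 3 of the 32 rose (9.38%, against 14.1% of all genes tested) and none fell (2.17% of all) by limma, with a median log2 difference of -0.15, against 0.14 over all genes. UHRF1, which brings DNMT1 to hemimethylated DNA, rose from 18816, 17703 and 17139 to 35403, 38236 and 42478 (1.11). The de novo methyltransferase DNMT3B (1.35) and PGBD1 (1.03) also rose. TRIM28 read 2286810, 2305210 and 2027100 in the control and 1416010, 1368920 and 1455410 at 5 μM, without overlap but under the fold threshold (-0.64). SETDB1 differed by -0.41. At 10 μM against 5 μM none of the 32 was called, and against 0 μM UHRF1 alone was, and was higher.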

How the data were processed

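RNA-Seq was read from 9 libraries of HT-29 cells. Per the labels and methods, the authors used TopHat on paired reads with the hg19 build, and the deposited unit is FPKM, 1 value per gene entry. Whether counting used strand was not given in the sources used here. The 24934 entries gave 23284 symbols, and FPKM of 543 repeated symbols were summed. limma 3.58.1 in R 4.3.3 was fitted to log2(FPKM + 1), with a trend, on the 6 samples of each pair, for genes with a value of at least 10 in either group. Fold changes are on that scale. Fragments were estimated from value steps and annotated lengths for 237 of the 243 genes, covering counting error only. The code was tested on simulated data, with changes planted only in genes with a mean of at least 10 estimated fragments. That test does not cover genes at a few fragments or at 0 in the control. The members and lists were chosen with earlier results of these data known. The named genes were up to 10 highest at 5 μM among those at 0 in the control and called, the 10 largest rises and falls per comparison among called members above 0 in all 6 libraries, the 10 highest control means, and role lists; other genes at 0 in the control, those called and at 0 in part, ZNF671's list and overlapping genes are named for completeness. The libraries were labelled as biological replicates of triplicate cultures; same-numbered libraries correlated in their deviations between -0.31 and 0.22, so the numbers were not taken to pair them. Alternatives were pseudocounts, filters, scaling, all 9 samples, a replicate block and leaving out each library. Protein sequences were not used here.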

Additional observations from a re-analysis of the deposited data

How the results depend on the processing

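At 5 μM against 0 μM, the number of ZNF genes that rose (24) was 15 with a pseudocount of 1000, 21 with the replicate block and 18 to 27 without 1 library, and the number that fell (5) was 3 to 5 without 1 library. At 10 μM against 5 μM, the number that fell (8) was 4 with at least 10 estimated fragments in 1 sample, 1 with the replicate block and 1 to 11 without 1 library, and the number that rose (0) was 0 to 1. At 10 μM against 0 μM, the number that rose (2) was 1 without a filter, 6 with median-of-ratios scaling, 4 with all 9 samples in one fit and 0 to 4 without 1 library, and the number that fell (4) was 2 without a filter and 1 to 8 without 1 library. Genes at 0 in the control (18) numbered 20 to 29 without 1 control library. Other settings kept these counts within 1.5 times, and 10 level classes did so for the counts that other genes' shares give. Counts over all genes moved as well, given here in the same order of settings. At 5 μM 2818 rose, and 2534, 2553 and 2388 to 3027 did, while 436 fell, and 406 to 507 did without 1 library. From 5 to 10 μM 969 fell, and 870, 407 and 176 to 1873 did, while 26 rose, and 12 to 64 did without 1 library. At 10 μM against 0 μM 771 rose, and 488, 1125, 1174 and 337 to 819 did. In that comparison 644 fell, and 271 and 165 to 1500 did. Without 1 library, uncalled log2 differences at 5 μM ran across 0 for ZNF532 (-0.011 to 0.045), ZNF580 (-0.063 to 0.13), ZNF592 (-0.13 to 0.024), ZNF593 (-0.11 to 0.11), ZNF638 (-0.12 to 0.0065), ZNF664 (-0.13 to 0.031) and ZNF671 (-0.23 to 0.012), and scaling turned ZNF592 (0.0043). The cause was not tested. Depth limits genes at a few fragments: at the floor of 3 fragments over a group, lower levels were not detectable.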
